A study of Homo sapiens with 12 samples.

Results

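The 50 genes described here are genes induced by type I interferon, taken by symbol from a table of 58884 genes measured by RNA-seq in KYSE70, an established human line of esophageal squamous cell carcinoma. They were listed by symbol and role rather than by a measured value, and each of the 50 symbols was found once. Cells had received mitoxantrone at 20 nM for 72 h, pyrimethamine at 10 µM for 72 h, or no treatment, with 4 libraries in each group. Mitoxantrone is a topoisomerase II poison used against cancer, and pyrimethamine is an antiparasitic inhibitor of dihydrofolate reductase. The series names both as NRF2 inhibitors and asks what they do to mRNA levels. All 12 libraries came from this single line, the labels name no vehicle for the untreated cells, and no label says whether replicate libraries are separate cultures, so the p-values measure the spread between these libraries, which may be technical.

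Type I interferons bind the receptor IFNAR1 and IFNAR2, whose kinases JAK1 and TYK2 phosphorylate STAT proteins, STAT2 among them. With IRF9 these form the complex ISGF3, which binds the interferon stimulated response element in promoters. The induced genes encode sensors of viral RNA, the STAT and IRF factors themselves, the ubiquitin-like modifier ISG15 with its enzymes, and effectors that block viral entry, translation or replication, and many epithelial cells keep a low level of them without added interferon.

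Depth ran between 47.5 M and 94.5 M gene-assigned reads per library, and values are the authors' normalized read counts, that is reads divided by 1 size factor per library. Genes of the mitochondrial genome took 3.23% to 3.89% of reads in mitoxantrone-treated, 6.83% to 8.33% in pyrimethamine-treated and 6.16% to 6.69% in untreated libraries, and the part of this share in the results was not tested. Mitoxantrone replicate 1 stood apart from the other mitoxantrone libraries, with a chi-square per degree of freedom of 21.9 to 31.7 in its pairs, against 5.17 to 12.03 in all other pairs within a group. Summed over 9 squamous epithelial markers, the libraries held 354307 to 376363 normalized counts in mitoxantrone-treated, 432487 to 457318 in pyrimethamine-treated and 362116 to 385554 in untreated cells. KRT5 made up most of this sum, and single markers moved with mitoxantrone in both directions, with log2 changes of 0.98 for SOX2, 0.41 for TP63 and 0.17 for EPCAM, all called higher, and -0.99 for CDH1, -0.65 for KRT17 and -0.35 for KRT6A, all called lower. With pyrimethamine KRT6A (0.56) and KRT5 (0.30) were called higher. DSG3 (-0.74), SOX2 (-0.49), TP63 (-0.38) and EPCAM (-0.18) were called lower with pyrimethamine, and KRT14, KRT17 and CDH1 were not called. Of 11 leukocyte markers, MS4A1, LILRA4 and NKG7 had 0 reads in every library, and the 11 summed to 2.86 to 10.3 with mitoxantrone, 21.9 to 48.1 with pyrimethamine and 8.31 to 37.4 without treatment. The 6 fibroblast markers summed to 5873 to 7647 with mitoxantrone, 11847 to 13229.8 with pyrimethamine and 16889 to 17596 untreated, and the 4 endothelial markers to 175 to 247, 1049 to 1153 and 948 to 1059 in the same order. COL1A1 and COL3A1 made up nearly all of the first sum and VWF of the second, while COL1A2, DCN and LUM stayed under 4 normalized counts and PECAM1 under 10 in every library. The part of these markers in the results was not tested, and in bulk RNA fewer cells of a type and less RNA per cell cannot be told apart.

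The promoters of 6 genes are shown because they carry the interferon response motif and yet belong to genes with different calls. Each is the 300 bases from 250 before to 50 after a RefSeq transcription start on GRCh38.p14, written 5′ to 3′ on the gene's strand, and capitals mark each match, on either strand, to the core of the interferon stimulated response element as searched here, a GAAA, any 2 bases and a second GAAA. IFI44, SAMD9, ISG15 and IFIT1 were lower after mitoxantrone, IFIH1 was not called there, and BST2 was higher.
IFI44, chr1:78649539-78649838, plus strand: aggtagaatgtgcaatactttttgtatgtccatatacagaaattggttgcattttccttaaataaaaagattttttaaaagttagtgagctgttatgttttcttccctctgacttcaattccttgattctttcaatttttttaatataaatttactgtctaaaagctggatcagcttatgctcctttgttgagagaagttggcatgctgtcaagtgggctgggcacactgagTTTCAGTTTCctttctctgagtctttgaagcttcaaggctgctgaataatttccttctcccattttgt
SAMD9, chr7:93117930-93118229, minus strand: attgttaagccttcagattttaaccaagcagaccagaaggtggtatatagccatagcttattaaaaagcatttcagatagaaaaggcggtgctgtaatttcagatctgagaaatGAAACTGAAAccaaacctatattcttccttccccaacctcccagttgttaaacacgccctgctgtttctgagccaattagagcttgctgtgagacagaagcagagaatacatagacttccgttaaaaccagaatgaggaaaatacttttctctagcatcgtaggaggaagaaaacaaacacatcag
ISG15, chr1:1013247-1013546, plus strand: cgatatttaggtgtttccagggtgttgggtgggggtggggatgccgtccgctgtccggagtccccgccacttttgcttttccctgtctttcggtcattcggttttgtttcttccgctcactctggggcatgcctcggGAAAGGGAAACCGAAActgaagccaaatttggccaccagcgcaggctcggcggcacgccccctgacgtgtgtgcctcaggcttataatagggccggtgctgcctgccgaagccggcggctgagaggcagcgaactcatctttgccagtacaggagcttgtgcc
IFIT1, chr10:89392373-89392672, plus strand: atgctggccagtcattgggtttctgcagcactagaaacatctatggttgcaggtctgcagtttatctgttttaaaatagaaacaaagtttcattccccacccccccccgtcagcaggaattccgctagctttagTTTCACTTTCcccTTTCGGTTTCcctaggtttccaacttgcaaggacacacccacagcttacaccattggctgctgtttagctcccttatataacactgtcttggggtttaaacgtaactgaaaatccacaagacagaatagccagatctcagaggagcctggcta
IFIH1, chr2:162318635-162318934, minus strand: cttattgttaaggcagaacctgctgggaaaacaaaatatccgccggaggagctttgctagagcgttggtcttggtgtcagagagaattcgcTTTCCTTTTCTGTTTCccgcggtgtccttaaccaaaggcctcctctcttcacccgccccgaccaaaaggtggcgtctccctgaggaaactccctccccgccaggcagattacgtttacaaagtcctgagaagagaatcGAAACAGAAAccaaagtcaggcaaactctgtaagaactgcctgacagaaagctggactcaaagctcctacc
BST2, chr19:17405581-17405880, minus strand: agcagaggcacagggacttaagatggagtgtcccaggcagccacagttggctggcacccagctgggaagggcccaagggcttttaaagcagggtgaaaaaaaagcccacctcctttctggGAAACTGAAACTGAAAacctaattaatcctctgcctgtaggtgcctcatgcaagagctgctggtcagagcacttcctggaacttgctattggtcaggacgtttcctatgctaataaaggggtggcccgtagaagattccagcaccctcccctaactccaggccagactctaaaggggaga

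A RefSeq promoter entry was found for 42 of the 50 genes (DDX58 under its current symbol RIGI). OAS2, OASL, IRF7, IFIT2, USP18, MX2, TRIM22 and GBP2 had no entry. The motif was in the promoter of 28 of the 42, or 66.7%, against 1195 of the 27305 genes in the whole table, or 4.38% (1255 of 35116 promoter entries, or 3.57%). A longer form with a C after the second GAAA was in 50% of the 42 and 0.952% of all genes, and the shorter GAAANNGAA, which every match of the other forms contains, in 69.0% and 9.86%. Of the 28 genes with the motif, 21 had enough reads to be tested, and in mitoxantrone-treated against untreated cells 18 of these were lower, 1 higher and 2 not called (median log2 change -1.96). Of the 14 without it, 12 were tested, 11 were lower and 1 was not called, with a median of -1.19. The share of all tested genes called lower was 35.8%. The genes without a match include promoters with close forms that the spacing of 2 bases misses. GAAACGAAA is in those of OAS1, DDX58 and XAF1, and GAAATGAAA in that of IFI35. A match is a description of these letters, and the difference between the medians was not tested.

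**Figure D1:**
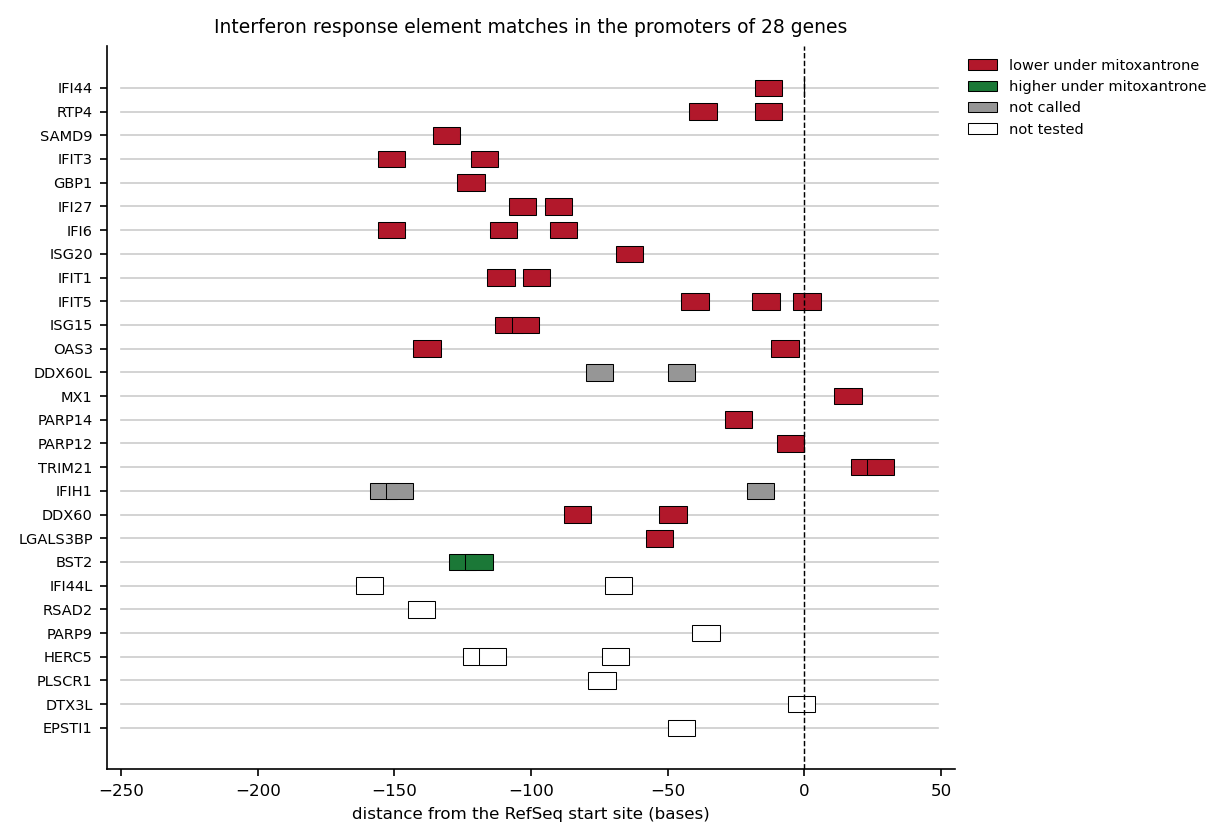
Distance in bases of each match to the response element core from the RefSeq transcription start (x axis), by gene (y axis; the first RefSeq entry with a match), with the colour giving the call in mitoxantrone-treated against untreated cells. The 28 genes with a match include genes called lower, the higher BST2 and genes with too few reads to test.

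Of the 50 genes, 39 had a normalized count of 10 or more in 4 or more of the 12 libraries and were tested with limma on log2(normalized count + 1), with Benjamini-Hochberg adjustment over 16950 genes and a call at 0.05. Fold changes are on that log scale, which understates the change of genes with few reads. After mitoxantrone 35 of the 39 were lower than in untreated cells, 1 (BST2) was higher, and IFIH1, DDX60L and ADAR were not called. Over all 16950 genes 35.8% were called lower and 33.5% higher, 69.3% in all. A fall of at least 2-fold was called for 25 of the 39 against 13.8% of all genes, while a rise of at least 2-fold was called for 3.88% of all genes and BST2 stayed under that size. All 4 mitoxantrone libraries lay below all 4 untreated ones for 34 of the 39 (31.0% of all genes) and above them for 1 (29.9%). The median log2 change was -1.39 for the 39 and -0.0080 for all genes. Without mitoxantrone replicate 1 the counts were again 35 lower and 1 higher, with a median of -1.40. The read minimum favours a fall in a gene that passed it only through the untreated cells. The 29 genes with a mean of at least 50 over all libraries were also counted, and 27 were lower, 1 higher and 1 not called (median -1.10). This mean does not remove the limit, since a gene can reach it through the other groups. IFIT2, IFIT3, GBP1, TRIM22 and ISG20 are among the 29 and averaged under 50 after mitoxantrone.

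After pyrimethamine the same 39 genes divided, with 6 higher (DDX58, OAS2, ISG20, SAMD9, SP100 and IFI6), 16 lower and 17 not called. The background was 26.4% of all genes called higher and 26.9% lower, 53.3% in all. A fall of at least 2-fold was called for IFIH1 alone among the 39 (2.35% of all genes), and 4.35% of all genes rose by at least 2-fold. The groups did not overlap for 7 genes that were higher (25.8% of all genes) and 16 that were lower (25.4%). The median log2 change was -0.18, against 0.0018 for all genes. With mitoxantrone replicate 1 left out of the shared estimate of spread, 7 genes were higher and 17 lower. Of the 29 genes with a mean of at least 50 over all libraries, 5 were higher, 14 lower and 10 not called (median -0.18).

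Between the drugs, 3 of the 39 genes were higher in mitoxantrone-treated than in pyrimethamine-treated cells (IFIH1, ADAR and BST2), 32 were lower, and UBE2L6, MX1, TRIM21 and SP110 were not called. Of all genes 36.9% were called higher and 39.5% lower, 76.4% in all. A fall of at least 2-fold was called for 22 of the 39 against 17.1% of all genes, and a rise of that size for 8.06% of all genes. The groups did not overlap for 32 genes that were lower (35.5% of all genes) and 1, BST2, that was higher (33.3%). The median log2 difference was -1.39 for the 39 and -0.024 for all genes. Without mitoxantrone replicate 1 the counts were 2 higher and 32 lower (median -1.40), and without pyrimethamine replicate 3 the count called higher was 1. Of the 29 genes with a mean of at least 50 over all libraries, 24 were lower, 2 higher and 3 not called (median -0.89). Here too that mean can be reached through libraries without mitoxantrone, which favours a fall. Both comparisons with untreated cells use the same 4 untreated libraries.

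**Figure D2:**
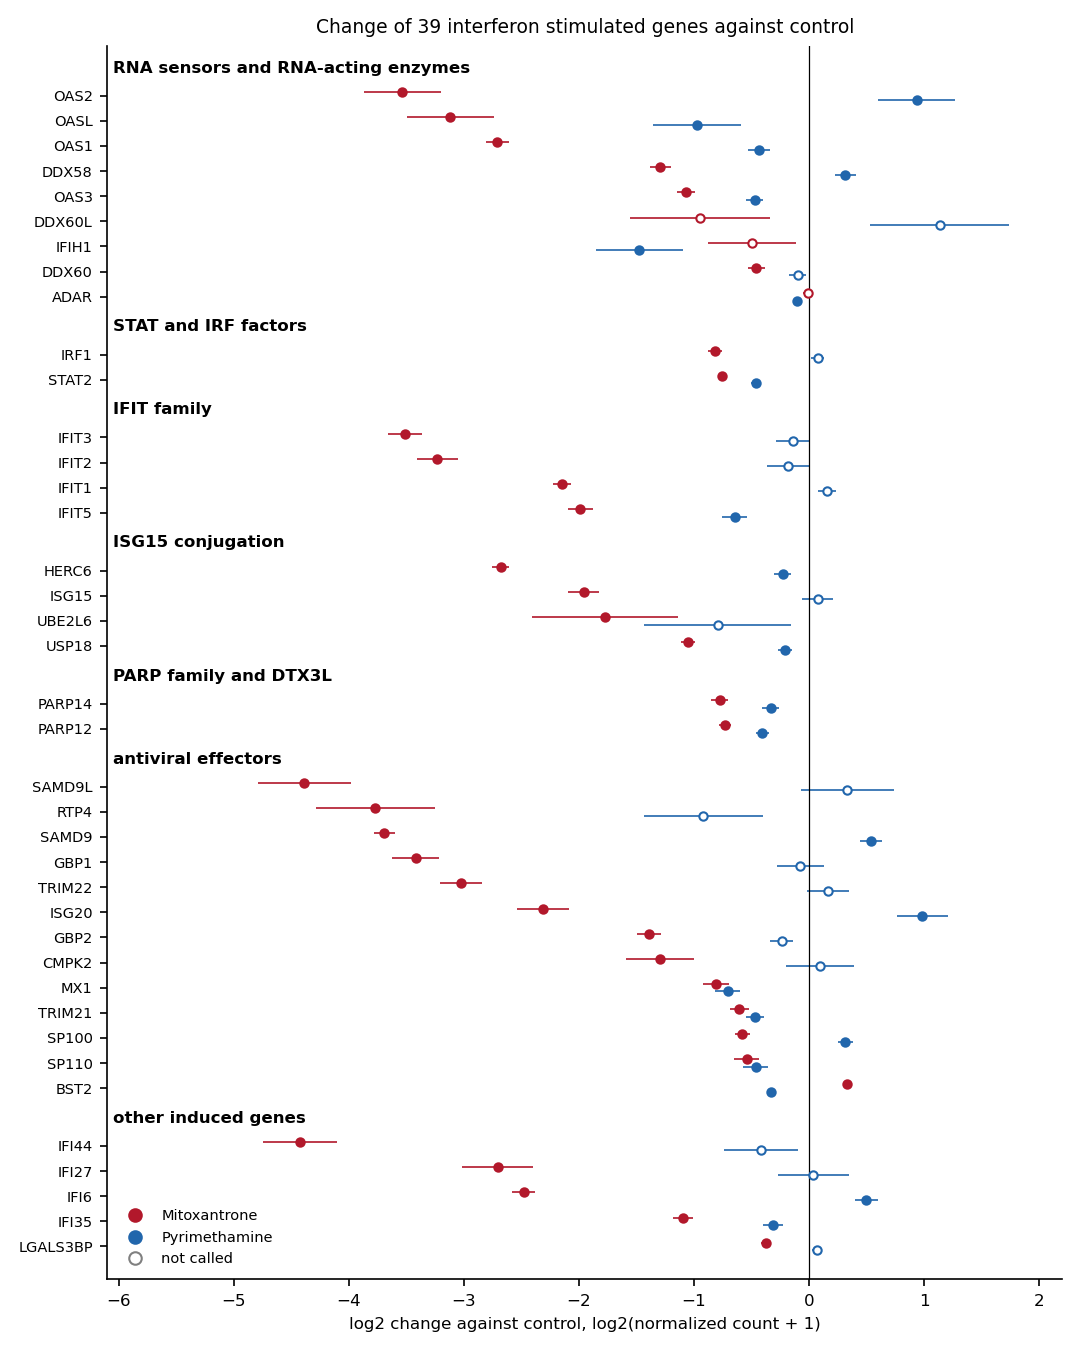
Log2 change (x axis, on log2(normalized count + 1), bars show SE) of the 39 tested genes by role, for mitoxantrone against untreated and pyrimethamine against untreated cells, with open points for genes not called. After mitoxantrone 35 genes lie left of 0 and are called, while after pyrimethamine 16 are called left and 6 right of it.

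Among the 9 RNA sensors and RNA-acting enzymes, 6 were lower after mitoxantrone and 3 were not called, while after pyrimethamine 2 were higher, 5 lower and 2 not called. After mitoxantrone 69.3% of all genes were called either way, which the 6 of 9 called are near, but all 6 were lower against 35.8% of all genes. A fall of at least 2-fold was called for 5 of the 9, against 13.8% of all genes. After pyrimethamine 26.4% of all genes were called higher and 26.9% lower, so the 2 of 9 higher are near the background. DDX58, which encodes RIG-I, the sensor of short viral RNA with a triphosphate end, held 194, 218, 178 and 225 normalized counts in mitoxantrone-treated cells, 592, 663, 575 and 657 in pyrimethamine-treated cells and 493, 474, 564 and 466 in untreated cells. The 3 groups did not overlap, with mitoxantrone lowest and pyrimethamine highest. The log2 change was -1.29 (SE 0.093, adjusted p = 7.44e-11) for mitoxantrone against untreated and 0.32 (SE 0.093, adjusted p = 0.00665) for pyrimethamine against untreated cells. IFIH1, which encodes MDA5, the sensor of long double-stranded RNA, had few reads, with 16.5, 19.1, 27.2 and 16.1 normalized counts after mitoxantrone, 19.6, 5.91, 7.16 and 8.76 after pyrimethamine and 36.5, 31.1, 35.3 and 14.5 untreated. Every pair of groups overlapped. The log2 change was -0.50 (SE 0.38, adjusted p = 0.254) with mitoxantrone and -1.47 (SE 0.38, adjusted p = 0.00258) with pyrimethamine. Against pyrimethamine the mitoxantrone value was higher by 0.98 (adjusted p = 0.0251, 4.66e-04 to 0.0824 over 22 alternatives), and the call was lost without pyrimethamine replicate 2 or 3 or mitoxantrone replicate 3. The call was also lost with edgeR (0.0527) and with no filter (0.0752).

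The oligoadenylate synthetases make a nucleotide messenger when they bind double-stranded RNA, and OASL is a relative without that activity. OAS1 (chromosome 12, 112906777 to 112933222, GRCh38) held 130.1, 133, 173 and 117 normalized counts after mitoxantrone, 655, 707, 657 and 643 after pyrimethamine and 938, 898, 842 and 919.7 untreated. All mitoxantrone libraries were lowest and all untreated libraries highest, with log2 changes of -2.71 (SE 0.10, adjusted p = 1.10e-15) for mitoxantrone and -0.43 (SE 0.10, adjusted p = 7.32e-04) for pyrimethamine. OAS2, its neighbour, held 4.13, 0.954, 1.24 and 1.79 after mitoxantrone, 64.97, 58.1, 57.3 and 65.7 after pyrimethamine and 23.4, 37.7, 37.4 and 30.3 untreated. Here the pyrimethamine libraries were highest, and no groups overlapped. The mitoxantrone change was -3.54 (SE 0.34, adjusted p = 6.17e-09), from 8 reads in the 4 mitoxantrone libraries against 141 in the untreated ones. OAS2 passed the read minimum only through the other groups, and that filter favours a fall after mitoxantrone. The pyrimethamine rise of 0.94 (SE 0.34, adjusted p = 0.0235) was not called without untreated replicate 1 (adjusted p = 0.0766), pyrimethamine replicate 1 (0.0554) or pyrimethamine replicate 4 (0.0569), or with no filter (0.0872), with a range of 0.00100 to 0.0872 over 22 alternatives.

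Per kilobase of exon OAS3 had the highest untreated level of the 3 neighbours, at 309.9 normalized counts against 182 for OAS1 and 5.14 for OAS2. It held 1480.1, 1153, 1096 and 1170.3 normalized counts after mitoxantrone, 1997, 1888, 1859.7 and 1638 after pyrimethamine and 2759, 2549.5, 2522 and 2398 untreated. The groups did not overlap, and the log2 change was -1.07 (SE 0.076, adjusted p = 6.41e-11) for mitoxantrone and -0.47 (SE 0.076, adjusted p = 2.17e-05) for pyrimethamine. OASL had 2.07, 8.59, 12.4 and 9.86 normalized counts after mitoxantrone, 24.9, 52.2, 24.6 and 44.9 after pyrimethamine and 60.8, 73.99, 61.3 and 83.01 untreated, a mitoxantrone change of -3.12 (SE 0.38, adjusted p = 2.70e-07). Its pyrimethamine change of -0.98 (SE 0.38, adjusted p = 0.0359) was lost on leaving out any single untreated library or pyrimethamine replicate 1 or 3 (adjusted p of 0.00165 to 0.109 over 22 alternatives). It was also lost with no filter (0.0907) and with no variance trend (0.0816). DDX60, a helicase described as a cofactor of RIG-I, averaged 559.9 ± 29.9 after mitoxantrone, 719 ± 46.2 after pyrimethamine and 769.9 ± 66.8 untreated (SD, n = 4 each), and was lower after mitoxantrone by a log2 change of -0.46 (SE 0.073, adjusted p = 1.10e-05). Its pyrimethamine change of -0.10 (SE 0.073, adjusted p = 0.277) was not called. DDX60L lay at 0 to 23.0 in all libraries, with a mitoxantrone change of -0.95 (SE 0.61, adjusted p = 0.172) and a pyrimethamine change of 1.14 (SE 0.61, adjusted p = 0.123), neither called. With a pseudocount of 10 the pyrimethamine change was called higher (adjusted p = 0.0494, range 0.0494 to 0.307 over 22 alternatives). DDX60L was lower with mitoxantrone than with pyrimethamine by a log2 change of -2.08 (SE 0.61, adjusted p = 0.00393), a call lost with quantile normalization (range 0.00195 to 0.193 over 22 alternatives). Its highest mitoxantrone value was 6.28, so DDX60L passed the minimum of 10 only through libraries of the other groups. That filter favours a difference in this direction. ADAR, the enzyme that edits adenosine in double-stranded RNA, averaged 24420.2 ± 1014, 22962 ± 1114 and 24616 ± 482 in mitoxantrone-treated, pyrimethamine-treated and untreated cells (SD, n = 4 each). Its mitoxantrone change was -0.012 (SE 0.039, adjusted p = 0.794), not called, but it was called lower with libraries rescaled to equal totals (0.0154) and with quantile normalization (0.00337), with adjusted p of 0.00337 to 0.970 over 23 alternatives. The pyrimethamine change of -0.10 (SE 0.039, adjusted p = 0.0349), with overlapping groups, was lost without untreated replicate 1, 2 or 3 or pyrimethamine replicate 1, 3 or 4 (0.00188 to 0.144 over 23 alternatives). It was also lost with no filter (0.0663) and with no variance trend (0.0730). Mitoxantrone against pyrimethamine gave 0.089 (SE 0.039, adjusted p = 0.0451) for ADAR, lost without untreated replicate 2 or 3, pyrimethamine replicate 1, 3 or 4, or mitoxantrone replicate 1 or 2 (0.0139 to 0.896 over 23 alternatives). This ADAR call was also lost with no filter, equal totals, only the 8 libraries compared or no variance trend, and its sign was reversed with quantile normalization.

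STAT2, a subunit of ISGF3, held 2086, 2063, 2004 and 1981 normalized counts after mitoxantrone, 2408, 2534, 2539 and 2473 after pyrimethamine and 3449, 3494, 3362 and 3403 untreated. Libraries of a group lay close together and the 3 groups did not overlap. The log2 change was -0.75 (SE 0.039, adjusted p = 3.92e-13) for mitoxantrone and -0.46 (SE 0.039, adjusted p = 3.02e-09) for pyrimethamine. IRF1, a factor induced by interferon gamma as well as by type I interferon, held 889, 844, 807 and 763 after mitoxantrone, 1661, 1486, 1524 and 1467 after pyrimethamine and 1473, 1469, 1411 and 1461 untreated, and the mitoxantrone libraries alone were set apart. Its change was -0.82 (SE 0.057, adjusted p = 4.05e-11) for mitoxantrone and 0.077 (SE 0.057, adjusted p = 0.268) for pyrimethamine, the second not called. In the GENCODE v29 annotation 22% of the exon length of IRF1 is overlapped by the antisense gene C5orf56, and the strand setting of the authors' counting is not given in the sources used here.

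IRF7 and IRF9 had too few reads to test. IRF7, the factor that amplifies interferon production, had 0, 3 and 0 reads in the 4 mitoxantrone, 4 pyrimethamine and 4 untreated libraries. IRF9, the DNA-binding part of ISGF3, had 11, 13 and 13 reads in the same order, and 48.4% of its exon length is shared with AL136295.5 on the same strand.

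**Figure D3:**
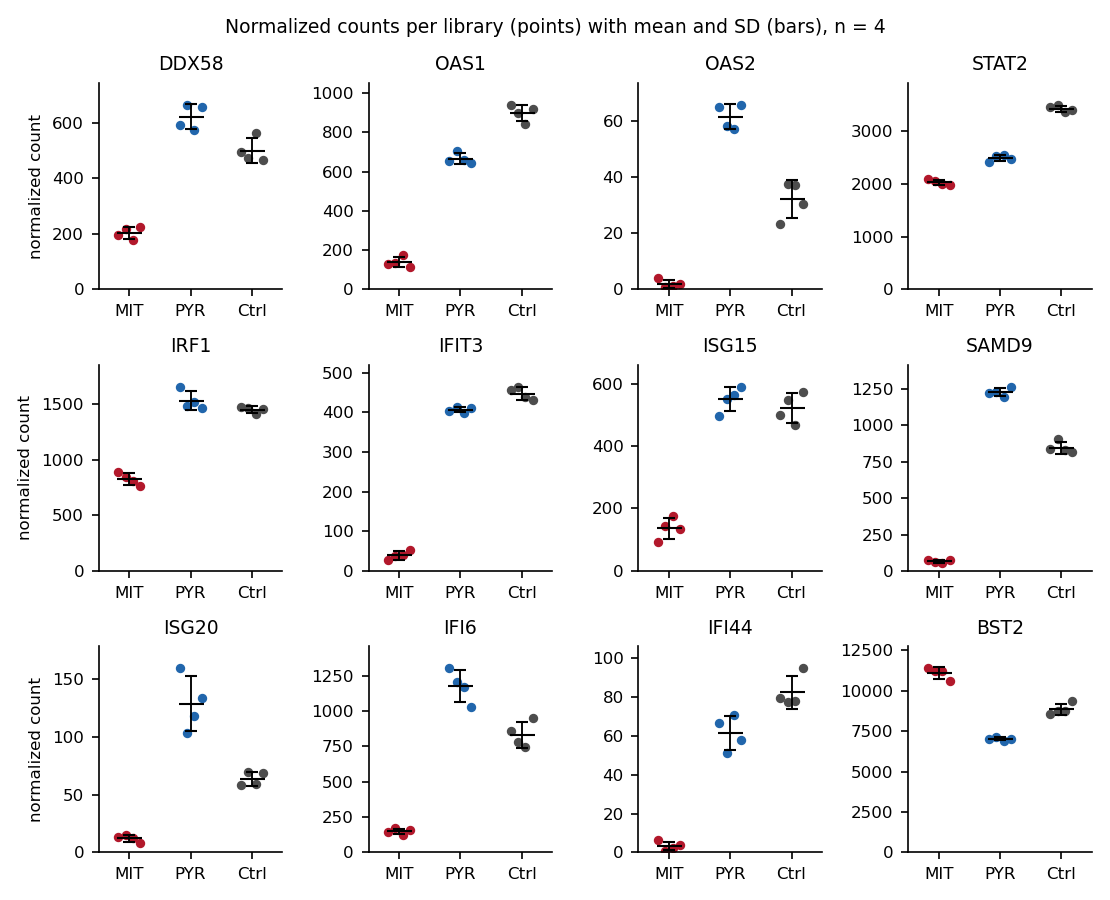
Normalized count in each library (points, y axis; the line is the mean and its bar the SD, n = 4) of 12 genes in mitoxantrone-treated, pyrimethamine-treated and untreated cells. Mitoxantrone libraries are lowest for 11 of these genes and highest for BST2.

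All 4 IFIT genes, which lie within 200 kb of each other on chromosome 10 and encode proteins that bind viral RNA and block its translation, were lower after mitoxantrone. The share called lower over all genes was 35.8%. IFIT3 held 26.9, 38.2, 39.6 and 52.9 normalized counts after mitoxantrone, 403, 414, 399 and 411 after pyrimethamine and 456, 465, 438 and 432 untreated. IFIT2 held 43.4, 19.1, 35.9 and 33.2 after mitoxantrone, 287, 263, 266 and 257 after pyrimethamine and 330.2, 328, 298 and 267 untreated. The mitoxantrone libraries of both genes lay far below all others, with log2 changes of -3.51 (SE 0.14, adjusted p = 9.46e-15) for IFIT3 and -3.23 (SE 0.18, adjusted p = 1.13e-12) for IFIT2. IFIT1 averaged 288 ± 41.2, 1418 ± 63.7 and 1273 ± 52.7 in mitoxantrone-treated, pyrimethamine-treated and untreated cells (SD, n = 4 each), with a mitoxantrone change of -2.15 (SE 0.078, adjusted p = 1.46e-15). IFIT5 averaged 112 ± 11.6, 287 ± 28.6 and 448 ± 34.4 in the same order, with a mitoxantrone change of -1.99 (SE 0.11, adjusted p = 8.26e-13). After pyrimethamine IFIT5 alone of the 4 was called, lower by a log2 change of -0.64 (SE 0.11, adjusted p = 3.61e-05). The pyrimethamine values were 0.16 (SE 0.078, adjusted p = 0.101) for IFIT1, -0.18 (SE 0.18, adjusted p = 0.411) for IFIT2 and -0.14 (SE 0.14, adjusted p = 0.444) for IFIT3. IFIT1 was called higher after pyrimethamine in 4 of 23 alternatives (adjusted p of 0.0111 to 0.321 over all 23). They were quantile normalization (0.0249), only the 8 libraries compared (0.0111), DESeq2 (0.0359) and leaving out mitoxantrone replicate 1 (0.0270).

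In the ISG15 system 4 of 5 genes were tested and all 4 were lower after mitoxantrone, against 35.8% of all genes. ISG15, the modifier itself, held 93.99, 144, 174 and 133 normalized counts after mitoxantrone, 498, 549.9, 562 and 590.3 after pyrimethamine and 499.5, 547, 468 and 574 untreated. The mitoxantrone libraries lay below all others and the other groups overlapped, with changes of -1.96 (SE 0.13, adjusted p = 2.88e-11) for mitoxantrone and 0.076 (SE 0.13, adjusted p = 0.660) for pyrimethamine. USP18, which removes ISG15 and restrains the receptor, averaged 575 ± 22.6, 1035 ± 73.2 and 1194 ± 50.99 in mitoxantrone-treated, pyrimethamine-treated and untreated cells (SD, n = 4 each). It was lower with both drugs, with log2 changes of -1.05 (SE 0.062, adjusted p = 2.91e-12) for mitoxantrone and -0.21 (SE 0.062, adjusted p = 0.00745) for pyrimethamine, and its reads may be divided with the near-identical copy USP41.

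HERC6, a ligase relative, held 154, 186, 176 and 168 after mitoxantrone, 926, 950.0, 882 and 990.0 after pyrimethamine and 1166, 1079, 1033 and 1112 untreated, with no overlap between groups. Its change was -2.68 (SE 0.074, adjusted p = 1.73e-17) for mitoxantrone and -0.23 (SE 0.074, adjusted p = 0.0129) for pyrimethamine, the second not called without untreated replicate 1 (adjusted p = 0.0507, range 0.00135 to 0.0507 over 23 alternatives). HERC5, the main ISG15 ligase of human cells and the neighbour of HERC6, had 0, 2 and 0 reads in the mitoxantrone, pyrimethamine and untreated libraries and was not tested. UBE2L6, the conjugating enzyme, had 0.897 to 9.90 normalized counts after mitoxantrone, 2.67 to 33.5 after pyrimethamine and 8.59 to 19.8 untreated, and its groups overlapped. The mitoxantrone change of -1.77 (SE 0.64, adjusted p = 0.0179) was lost without untreated replicate 3, mitoxantrone replicate 2 or mitoxantrone replicate 4, and with quantile normalization (0.00579 to 0.285 over 22 alternatives). Against pyrimethamine the value was -0.98 (SE 0.64, adjusted p = 0.168), not called. UBE2L6 passed the read minimum only through the other groups, which favours a fall after mitoxantrone.

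Both tested genes of the PARP family, whose enzymes add ADP-ribose to proteins, were lower with both drugs. The share of all genes called lower was 35.8% after mitoxantrone and 26.9% after pyrimethamine. PARP12 averaged 803 ± 20.1, 1006 ± 58.6 and 1333 ± 48.1 and PARP14 709 ± 50.5, 966 ± 96.3 and 1214 ± 94.5 normalized counts in mitoxantrone-treated, pyrimethamine-treated and untreated cells (SD, n = 4 each). The mitoxantrone change was -0.73 (SE 0.056, adjusted p = 2.07e-10) for PARP12 and -0.77 (SE 0.074, adjusted p = 7.15e-09) for PARP14, and the pyrimethamine change was -0.41 (SE 0.056, adjusted p = 2.88e-06) and -0.33 (SE 0.074, adjusted p = 7.52e-04). PARP9 and its partner DTX3L were not tested. PARP9 had 0 reads in the mitoxantrone libraries, 55 in the pyrimethamine libraries and 8 in the untreated ones. Set against a floor of 3 reads over the mitoxantrone group, the ratio was 17.9 for pyrimethamine over mitoxantrone and 2.44 for untreated over mitoxantrone. The counting error of the higher group is not in these ratios, so they are not lower limits. DTX3L had 1, 10 and 7 reads in the same order. The floor covers the counting error of the 0 reads alone, and counting intervals cover counting error only.

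Of the 16 antiviral effectors 13 were tested, and after mitoxantrone 12 were lower (35.8% of all genes) and 1 was higher (33.5%). SAMD9, a restriction factor of poxviruses, held 72.3, 61.1, 53.2 and 73.5 normalized counts after mitoxantrone, 1224, 1229.8, 1196 and 1266 after pyrimethamine and 834, 905, 828 and 817 untreated. No groups overlapped, with pyrimethamine highest. The change was -3.69 (SE 0.094, adjusted p = 3.46e-18) for mitoxantrone, 0.54 (SE 0.094, adjusted p = 5.13e-05) for pyrimethamine and -4.23 (SE 0.094, adjusted p = 1.35e-19) for mitoxantrone against pyrimethamine. SAMD9L, its neighbour and paralogue, had 3 reads in the mitoxantrone libraries, 170 in the pyrimethamine libraries and 142 in the untreated ones. Untreated levels were higher than mitoxantrone levels by a ratio of 43.3 (95% counting interval 14.5 to 213), and the adjusted p was 3.63e-09. SAMD9L passed the read minimum only through the other groups, which favours a fall after mitoxantrone. The pyrimethamine change of SAMD9L was 0.33 (SE 0.40, adjusted p = 0.510), not called.

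ISG20, an RNA exonuclease, held 13.4, 15.3, 12.4 and 8.07 normalized counts after mitoxantrone, 159, 103, 118 and 134 after pyrimethamine and 58.00, 69.4, 59.2 and 68.5 untreated. Again no groups overlapped and pyrimethamine was highest. The change was -2.31 (SE 0.22, adjusted p = 7.47e-09) for mitoxantrone and 0.99 (SE 0.22, adjusted p = 7.94e-04) for pyrimethamine. SP100, a component of PML nuclear bodies, averaged 766 ± 67.04, 1420.2 ± 84.5 and 1141 ± 49.4 in mitoxantrone-treated, pyrimethamine-treated and untreated cells (SD, n = 4 each), with changes of -0.58 (SE 0.065, adjusted p = 8.02e-08) and 0.31 (SE 0.065, adjusted p = 3.42e-04) for the drugs in that order. Its neighbour SP110 averaged 221 ± 25.8, 233 ± 18.9 and 322 ± 29.96 and was lower with both drugs, with log2 changes of -0.54 (SE 0.11, adjusted p = 1.57e-04) and -0.46 (SE 0.11, adjusted p = 0.00114), and other genes overlap 20.9% of its exon length. Mitoxantrone against pyrimethamine gave -0.078 (SE 0.11, adjusted p = 0.521) for SP110, not called.

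GBP1, a guanylate-binding protein that attacks intracellular pathogens, held 16.5, 17.2, 37.1 and 26.01 normalized counts after mitoxantrone, 263, 264, 204 and 241 after pyrimethamine and 276, 285, 201 and 265 untreated. TRIM22, a ubiquitin ligase, held 25.8, 16.2, 23.5 and 15.2 after mitoxantrone, 187, 170.5, 201 and 196 after pyrimethamine and 188, 159, 141 and 187 untreated. For both genes the mitoxantrone libraries lay below all others, and the pyrimethamine and untreated libraries overlapped. The mitoxantrone change was -3.42 (SE 0.20, adjusted p = 3.62e-12) for GBP1 and -3.03 (SE 0.18, adjusted p = 3.70e-12) for TRIM22, and the pyrimethamine values of -0.076 (SE 0.20, adjusted p = 0.781) and 0.17 (SE 0.18, adjusted p = 0.467) were not called. OR56B1 shares 10.7% of the exon length of TRIM22. GBP2 averaged 215 ± 29.5, 475 ± 21.6 and 562 ± 64.2 in mitoxantrone-treated, pyrimethamine-treated and untreated cells (SD, n = 4 each), with a mitoxantrone change of -1.39 (SE 0.10, adjusted p = 1.15e-10). Its pyrimethamine change of -0.24 (SE 0.10, adjusted p = 0.0575) was not called, but 8 of 23 alternatives called it lower (range 0.0141 to 0.211 over all 23). Among the 8 were edgeR (0.0246), DESeq2 (0.0263), rescaling to equal totals (0.0234), and leaving out untreated replicate 3 (0.0291) or mitoxantrone replicate 1 (0.0466).

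MX1, a GTPase that blocks influenza virus, held 153, 192, 167 and 158 normalized counts after mitoxantrone, 183, 182, 164 and 185 after pyrimethamine and 296, 332, 268 and 277 untreated. The drug groups overlapped each other and lay below all untreated libraries. The change was -0.81 (SE 0.11, adjusted p = 1.64e-06) for mitoxantrone, -0.71 (SE 0.11, adjusted p = 1.61e-05) for pyrimethamine and -0.10 (SE 0.11, adjusted p = 0.436) between the drugs. TRIM21, the cytosolic antibody receptor, averaged 573 ± 53.4, 627 ± 29.04 and 871 ± 86.7 in mitoxantrone-treated, pyrimethamine-treated and untreated cells (SD, n = 4 each), with changes of -0.60 (SE 0.079, adjusted p = 7.82e-07) and -0.47 (SE 0.079, adjusted p = 3.65e-05) for the drugs in that order and -0.13 (SE 0.079, adjusted p = 0.132) between them. With libraries rescaled to equal totals TRIM21 was called lower between the drugs (adjusted p = 0.0421, range 0.0421 to 0.420 over 23 alternatives).

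BST2, or tetherin, which holds budding virus at the cell surface, went the other way. It held 11394, 11208, 11214 and 10574 normalized counts after mitoxantrone, 7029, 7159, 6894 and 7026 after pyrimethamine and 8544, 8717, 8724 and 9371 untreated. The mitoxantrone libraries were all highest and the pyrimethamine libraries all lowest. The change was 0.33 (SE 0.037, adjusted p = 7.02e-08) for mitoxantrone, -0.33 (SE 0.037, adjusted p = 1.54e-07) for pyrimethamine and 0.66 (SE 0.037, adjusted p = 4.38e-13) between the drugs. CMPK2, a mitochondrial nucleotide kinase, averaged 9.03 ± 1.10, 25.2 ± 2.42 and 23.97 ± 6.20 in the 3 groups, mitoxantrone first (SD, n = 4 each), with a mitoxantrone change of -1.29 (SE 0.30, adjusted p = 5.69e-04) and a pyrimethamine value of 0.093, not called (adjusted p = 0.816). RTP4, a chaperone of receptors at the cell surface, had 1 read in the mitoxantrone libraries, 32 in the pyrimethamine libraries and 74 in the untreated ones, a ratio of untreated over mitoxantrone of 67.7 (95% counting interval 11.8 to 2711). Its pyrimethamine change of -0.92 (SE 0.51, adjusted p = 0.141) was not called, but 4 of 22 alternatives called it lower (a pseudocount of 10, quantile normalization, no variance trend and edgeR), with adjusted p of 0.0373 to 0.325 over 22 alternatives. Mitoxantrone against pyrimethamine gave a called fall for RTP4 (adjusted p = 3.62e-05), lost with quantile normalization (0.0525, range 1.89e-05 to 0.0525 over 22 alternatives). RTP4 passed the read minimum only through the other groups, which favours a fall after mitoxantrone. Not tested for too few reads were RSAD2 (viperin), with 11, 27 and 48 reads in the mitoxantrone, pyrimethamine and untreated libraries, MX2 with 1, 0 and 1, and PLSCR1 with 5, 4 and 2.

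All 5 tested genes of the last group, induced genes of various or less settled function, were lower after mitoxantrone, against 35.8% of all genes. IFI44 held 6.20, 0.954, 2.47 and 3.59 normalized counts after mitoxantrone, 66.8, 51.2, 70.6 and 58.04 after pyrimethamine and 79.5, 77.3, 77.9 and 94.9 untreated. No groups overlapped, and the mitoxantrone value came from 13 reads against 349 untreated. The change was -4.42 (SE 0.32, adjusted p = 8.72e-11) for mitoxantrone and -0.42 (SE 0.32, adjusted p = 0.290) for pyrimethamine, the second not called. IFI44 passed the read minimum only through the other groups, which favours a fall after mitoxantrone. IFI6, a small membrane protein that limits cell death, held 145, 171, 125 and 155 after mitoxantrone, 1303, 1205, 1169 and 1025 after pyrimethamine and 856, 781, 743 and 951 untreated. Its mitoxantrone libraries were lowest and its pyrimethamine libraries highest, with changes of -2.48 (SE 0.10, adjusted p = 6.06e-15) and 0.50 (SE 0.10, adjusted p = 2.25e-04). IFI27 averaged 7.72 ± 3.77, 53.4 ± 7.03 and 52.7 ± 12.2 in mitoxantrone-treated, pyrimethamine-treated and untreated cells (SD, n = 4 each), with a mitoxantrone change of -2.71 (SE 0.31, adjusted p = 1.01e-07) and a pyrimethamine value of 0.039, not called (adjusted p = 0.928).

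IFI35 averaged 485 ± 65.2, 831 ± 74.9 and 1032 ± 45.7 in mitoxantrone-treated, pyrimethamine-treated and untreated cells (SD, n = 4 each) and was lower with both drugs, with log2 changes of -1.10 (SE 0.086, adjusted p = 2.81e-10) for mitoxantrone and -0.32 (SE 0.086, adjusted p = 0.00375) for pyrimethamine. LGALS3BP, a secreted glycoprotein that binds galectin, averaged 15207 ± 675, 20644 ± 1028 and 19676 ± 603 and had a mitoxantrone change of -0.37 (SE 0.041, adjusted p = 5.56e-08) and a pyrimethamine value of 0.068, not called (adjusted p = 0.168). The rest of the group was not tested. IFI44L, the neighbour of IFI44, had 7, 6 and 21 reads in the mitoxantrone, pyrimethamine and untreated libraries. EPSTI1 had 3, 26 and 30, a ratio of untreated over mitoxantrone of 9.15 (95% counting interval 2.85 to 46.9). XAF1 had 0, 5 and 9, a ratio of untreated over mitoxantrone of 2.75 at the floor of 3 reads, without the counting error of the untreated reads.

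Levels between genes were compared as normalized counts per kilobase of exon. In untreated cells BST2 was highest at 7899, followed by LGALS3BP at 5489.9, ADAR at 2540.1 and IFI6 at 963. STAT2, USP18, ISG15 and IFI35 came next, at 561, 561, 555 and 523. The ranges over the 4 untreated libraries of STAT2, USP18 and ISG15 overlapped, and the range of ISG15 held the mean of IFI35. Neither the order of STAT2, USP18 and ISG15 nor that of ISG15 and IFI35 is resolved. Of the 50 genes, 26 fall into 11 groups of neighbours within 200 kb, and untreated HERC6 stood at 189 per kilobase beside HERC5 at 0. MX1 stood at 34.02 beside MX2 at 0.0127, and DDX60 at 114 beside DDX60L at 0.560. PARP14 stood at 116 beside PARP9 at 0.245, IFI44 at 40.4 beside IFI44L at 0.486, and SAMD9 at 123 beside SAMD9L at 4.56. Some neighbours lay closer together, with GBP1 at 51.5 beside GBP2 at 89.6 and SP110 at 46.9 beside SP100 at 90.5. OAS1 at 182 and OAS3 at 309.9 were also closer, while OAS2 beside them stood at 5.14.

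**Figure D4:**
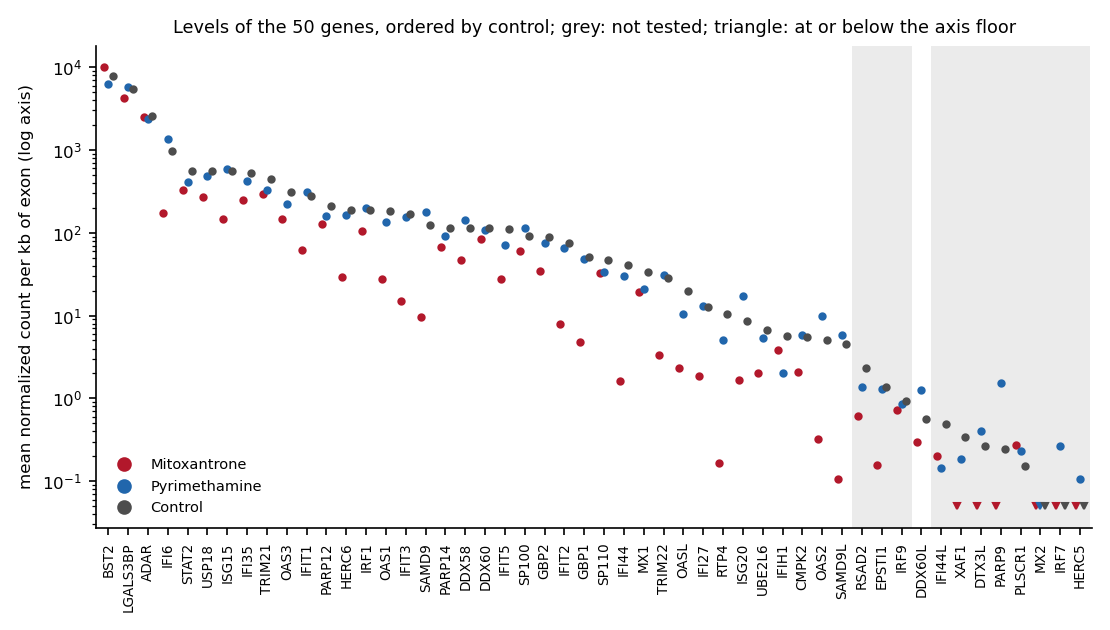
Mean normalized count per kilobase of exon (y axis, log scale) of the 50 genes, ordered by the level in untreated cells, for mitoxantrone-treated, pyrimethamine-treated and untreated cells. BST2, LGALS3BP and ADAR lead, grey bands mark the 11 genes with too few reads to test, and triangles stand for values at or under the axis floor of 0.05.

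Around these genes, 53 other genes of the interferon pathway were read from the same table, and 40 had enough reads. After mitoxantrone 29 of the 40 were lower, 5 higher and 6 not called, with 6 lower by at least 2-fold and a median log2 change of -0.33. Over all genes 35.8% were called lower, 33.5% higher and 13.8% lower by at least 2-fold, so the 6 of 40 are near the background. After pyrimethamine 8 were higher, 15 lower and 17 not called, against 26.4% of all genes higher and 26.9% lower, and the 23 of 40 called either way are near the 53.3% of all genes. None of the 10 interferon genes listed was tested, and 5 of them, IFNB1, IFNA1, IFNA2, IFNW1 and IFNL2, had 0 reads in all 12 libraries. IFNE had the most, with 13, 35 and 12 reads in the mitoxantrone, pyrimethamine and untreated libraries.

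The receptor chain IFNAR1 averaged 3305 ± 72.9, 3597 ± 72.5 and 3466 ± 35.8 normalized counts in mitoxantrone-treated, pyrimethamine-treated and untreated cells (SD, n = 4 each), and its mitoxantrone change of -0.069 (SE 0.036, adjusted p = 0.0973) was not called. IFNAR2 was higher after mitoxantrone, with a log2 change of 0.30 (SE 0.085, adjusted p = 0.00361), and lower after pyrimethamine, with -0.39 (SE 0.085, adjusted p = 5.93e-04), and other genes overlap 83.2% of its exon length. IFNLR1, the receptor of interferon lambda, was higher after mitoxantrone (0.42, adjusted p = 8.76e-06) and lower after pyrimethamine (-0.18, adjusted p = 0.0294). The interferon gamma receptor genes IFNGR1 and IFNGR2 were both called lower after mitoxantrone. After pyrimethamine IFNGR1 was called higher and IFNGR2 lower. IL10RB was not called against untreated cells with either drug.

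The 6 pathway genes lower by at least 2-fold after mitoxantrone were TLR3, the endosomal sensor of double-stranded RNA (log2 change -2.16), IFITM2, a blocker of viral entry (-2.14), LAMP3 (-2.13), TDRD7 (-1.25), HELZ2 (-1.19) and IKBKE, a kinase upstream of IRF3 (-1.04). IFITM2 shares near-identical sequence with IFITM1 and IFITM3, and its reads are uncertain for that reason. EIF2AK2, which encodes the RNA-activated kinase PKR, was higher after mitoxantrone (log2 change 0.28, adjusted p = 1.16e-06) and lower after pyrimethamine (-0.47, adjusted p = 1.64e-09).

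**Figure D5:**
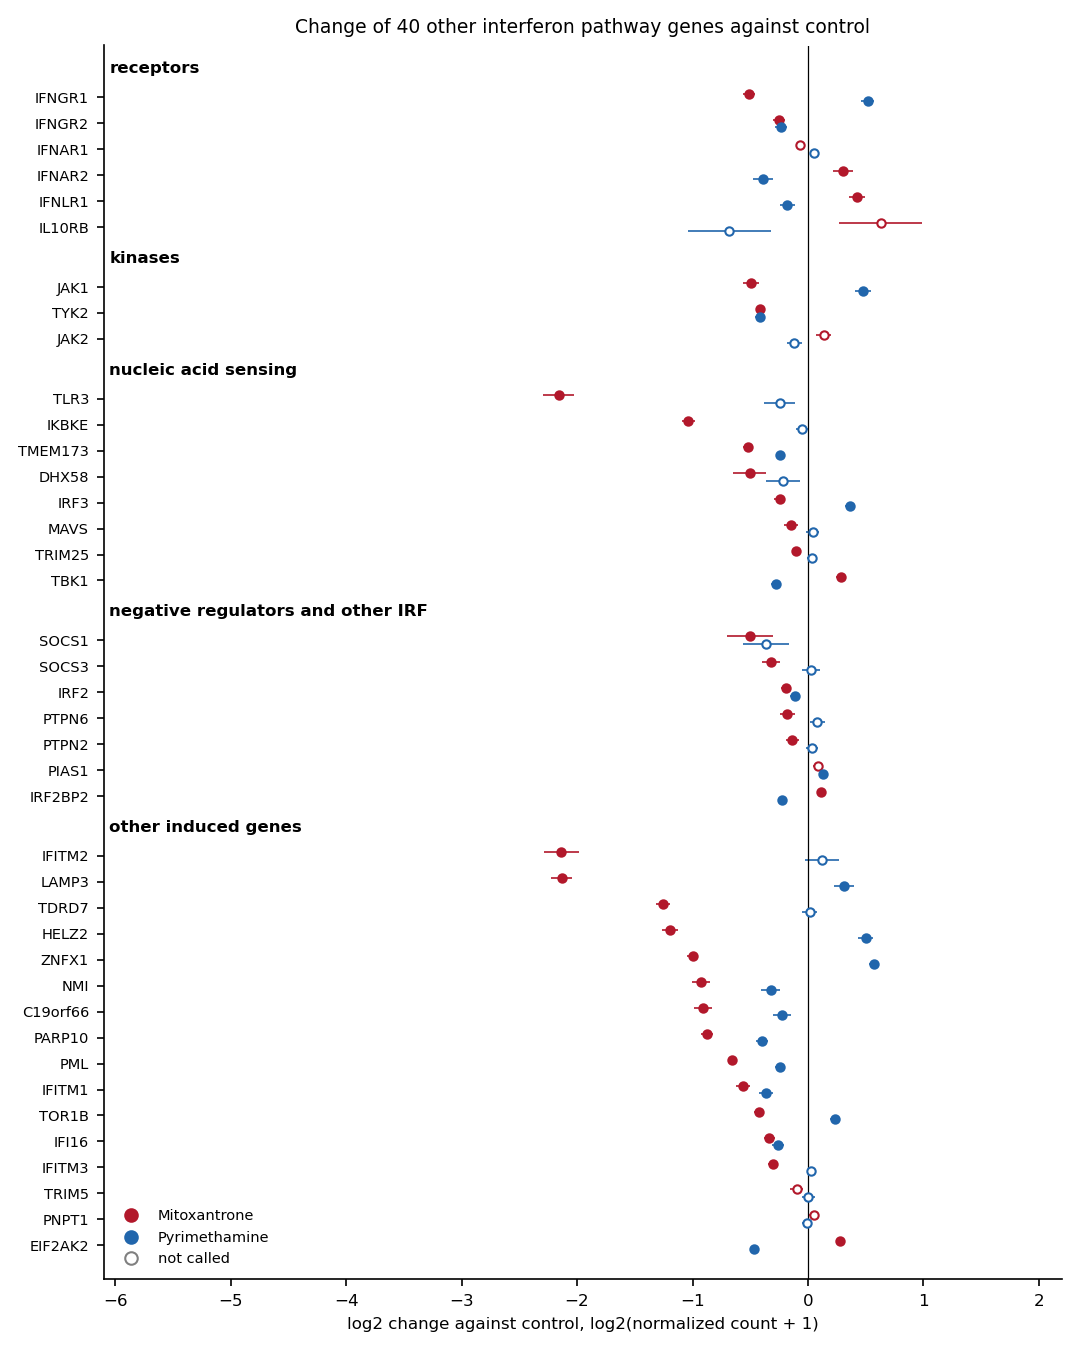
Log2 change (x axis, on log2(normalized count + 1), bars show SE) of the 40 tested pathway genes outside the 50, by role, for mitoxantrone against untreated and pyrimethamine against untreated cells, with open points for genes not called. TLR3, IFITM2 and LAMP3 lie farthest left after mitoxantrone, between -2.16 and -2.13.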

How the data were processed

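RNA-seq libraries of KYSE70 cells, 4 per group, were grouped by the treatment label. The authors deposited 1 table of normalized counts per gene, a signal per library that equals whole reads divided by 1 size factor (100.0% of values gave whole reads within 0.01, and the factors equal median-of-ratios factors). STAR 2.6.90c, featureCounts 1.5.1, cutadapt 1.12 and FastQC 0.11.5 are listed in the submitters' processing notes, with the builds hg38 and mm10 and without their roles. The settings for strand and for overlapping genes are not given in the sources used here, so reads of overlapping genes may be shared or lost. Of 58884 genes, 34033 had a read.

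Values of at least 10 in at least 4 of 12 libraries left 16950 genes, which were tested on log2(value + 1) with limma 3.58.1 in R 4.3.3 (all 12 libraries, group as the only term, empirical Bayes with a trend, two-sided, Benjamini-Hochberg adjustment, calls at 0.05). The procedure was also run on simulated counts with the same dispersion for every gene and library. Mitoxantrone replicate 1 stood apart in the measured libraries, which the simulation does not copy, and its outcome is not given here. Alternatives, 23 per comparison, changed the pseudocount, filter, scaling, libraries in the fit, variance trend and replicate block, used edgeR 4.0.16 and DESeq2 1.42.0 on the recovered reads, and left out each library. Exon lengths, positions and overlaps are from GENCODE v29 (GRCh38) and promoters from RefSeq (GRCh38.p14).

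The genes, lists and naming rule were chosen with earlier results of these data known. The rule names the sensors and the STAT and IRF factors, the 10 largest called changes per comparison where the higher group averaged 50 or more, genes called against the majority, genes not called where 5 or fewer, genes with too few reads, and, of the other pathway genes, the ligands, receptors and called changes of at least 2-fold; other genes were added to complete each role, and EIF2AK2 was named after its values were seen. Some pathway genes are not reported here. Counting intervals are at 95% and the floor is 3 reads over the group.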

Additional observations from a re-analysis of the deposited data

Results flagged for a closer look

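In the 39 tested genes, each group of 4 libraries was searched for a highest or lowest value set apart from the others by a gap past Dixon's 95% critical value. Of 117 groups 4 were flagged, and chance flags about 1 in 20. UBE2L6 in pyrimethamine replicate 2 had 33.5 normalized counts against 2.67 to 7.16 in the other pyrimethamine libraries. Without that library its change against untreated cells was called, at a log2 value of -1.46 (limma, adjusted p = 0.0499, range 0.0499 to 0.744 over 22 alternatives). MX1 in pyrimethamine replicate 3 had 163.8 against 182 to 185. RTP4 in mitoxantrone replicate 1 had 1.03 against 0 in the other mitoxantrone libraries. IFI44 in untreated replicate 4 had 94.9 against 77.3 to 79.5.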

How the results depend on the processing

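Over all alternatives mitoxantrone-treated cells kept 1 gene called higher than untreated, and 26 to 38 called lower, the lowest where a mean of at least 100 left 28 genes to test. The median log2 change of the tested genes was -1.08 with a mean of at least 100 and -1.10 with quantile normalization, and -1.45 to -1.32 on leaving out 1 library. For pyrimethamine the median was -0.24 after rescaling all libraries to equal totals, and -0.22 to -0.14 on leaving out 1 library, which gave 5 to 7 genes higher and 13 to 17 lower. Between mitoxantrone and pyrimethamine the median was -0.89 with a pseudocount of 10, -1.09 with no filter, -0.89 with a mean of at least 100 and -1.01 with quantile normalization. The count called higher between the drugs was 1 with no filter and 1 to 3 on leaving out 1 library, the 1 without pyrimethamine replicate 3. The replicate block gave 35 lower and 1 higher for mitoxantrone, 16 lower and 6 higher for pyrimethamine, and 32 lower and 3 higher between the drugs. Same-numbered libraries correlated at -0.013 to 0.029 in their deviations.

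Changes of sign were limited to these genes. With quantile normalization DDX60L changed to 0.30 for mitoxantrone, IFI27 to -0.12 and CMPK2 to -0.059 for pyrimethamine, and between the drugs SP110 to 0.14, UBE2L6 to 0.31, MX1 to 0.22 and ADAR to -0.0059. After rescaling to equal totals IFI27 changed to -0.017 for pyrimethamine. On leaving out 1 library ADAR ranged over -0.0339 to 0.0066 for mitoxantrone, and for pyrimethamine IFI27 over -0.10 to 0.17, CMPK2 over -0.011 to 0.25 and GBP1 over -0.19 to 0.0059. The causes were not tested. Rescaling to the same total moved the median of all genes to -0.11 for mitoxantrone and changed the calls over all genes to 4420 higher and 7210 lower, against 5681 and 6064, and for pyrimethamine to 3647 and 5506, against 4477 and 4565. The motif share was 50% with the longer and 69.0% with the shorter letters. Read counts limit the 11 untested genes and IFIH1, DDX60L, UBE2L6, SAMD9L and RTP4 most.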
